A study of Homo sapiens with 14 samples.

Results

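OR51E2, AMBN, TOX3, RFX6 and HSF2BP are 5 genes whose transcripts read low in vector-transfected HEK293 cells and higher in HEK293 cells carrying HOXD13. They were picked out of 19775 genes named on the arrays. The rule took the largest differences between the HOXD13 lines and the V5 vector from vector levels near the array floor. TOX3 lay above that floor, with V5 vector means of 4.15, 4.30 and 4.98 on the probe sets that differed. HSF2BP in HOXD13 clone c, at 3.53, was barely above the V5 vector. All 10 probe sets annotated to the 5 genes, of 54675 in all, are described on all 14 arrays. Of the 10, 7 passed a filter on low values (5 or more on 3 or more arrays). Those 7 would not have passed without the HOXD13 arrays, so a difference from the V5 vector had to be present and is given as a description with no test.

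HEK293 is a human embryonic kidney cell line. Per the labels it was stably transfected and selected with G418, an antibiotic toxic to cells that lack a resistance gene. The 4 lines with V5-tagged HOXD13 (a mix of transfected cells, and the clones a, b and c taken out of it) were set against 3 arrays of cells with the V5 vector. The 4 lines with HA-tagged HOXD9 (a mix, clone a, clone b and clone c as well) were set against 3 arrays of cells with the HA vector. The promoter of the vectors is not given in the sources used here. The clones came out of the mix, so the lines of a HOX gene are not fully independent, and the labels do not say how the vector cultures were separated. P-values therefore measure the spread between these samples, which may be partly technical.

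HOXD13 is the homeodomain transcription factor at the far end of the HOXD cluster and acts in the patterning of digits and of the urogenital tract. HOX proteins of its paralogue group prefer DNA sites rich in A and T, and as transcription factors they can raise or lower the genes near the sites they bind. The 5 genes belong to unrelated tissues. OR51E2 encodes an odorant receptor coupled to G proteins that is known from the prostate. AMBN encodes ameloblastin, an enamel matrix protein that ameloblasts secrete. TOX3 encodes a nuclear protein with an HMG box that is known from luminal breast epithelium and neurons. RFX6 is a winged-helix factor needed to form the endocrine cells of the pancreatic islet. HSF2BP binds the heat shock factor HSF2 and acts with BRCA2 in meiotic recombination.

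Values are GCRMA log2 expression values, in which a difference of 1 is a 2-fold change, and transcripts that are not detected lie close to a floor near 2. On the first V5 vector array 55.3% of the probe sets lay below 3 and 64.5% below 5. Sorted by size, values in the V5 set (HOXD13 and V5 vector, 7 arrays) matched within 0.00195 and those of the HA set (HOXD9 and HA vector) within 0.00102, while the 75th percentiles were 7.02 and 6.27. The sets were thus put on separate scales, and levels were compared within a set only. HOXD13 signal was higher in every HOXD13 line on 2 of the gene's 3 probe sets, the exception on the other, 236681_at, being clone c at 8.87, against 8.93 to 8.95 in the V5 vector. Cells without the transgene thus gave signal too, with V5 vector means of 8.94 on 236681_at and 6.93 on 207397_s_at. The source of that signal was not tested, so these values do not measure the transgene alone. Probe set 207397_s_at stood at 12.32, 12.55, 12.59 and 12.24 in the HOXD13 mix, clone a, clone b and clone c, against 6.84, 7.01 and 6.94 on the V5 vector arrays. Of the HEK293 markers with a probe set, 6 of 10 passed the filter. They included neurofilament light chain NEFL, at 12.07 ± 0.58 in the HOXD13 lines (SD, n = 4) and 11.35 ± 0.03 in the V5 vector (n = 3), and vimentin, VIM, at 13.87 ± 0.14 and 14.12 ± 0.01 in the same groups. NEFM, the kidney genes PAX2 and PAX8, and LHX1 lay below the filter.

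The members differ in how much of the gene's probe set coverage showed the difference. In the 7 probe sets that passed the filter every HOXD13 array lay above every V5 vector array, a pattern that 8.60% of the 19816 probe sets tested showed. Since the genes were chosen on these arrays, nothing is read from that count. The other 3 probe sets, 2 of OR51E2 and 1 of TOX3, stayed at the floor in all groups.

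**Figure D1:**
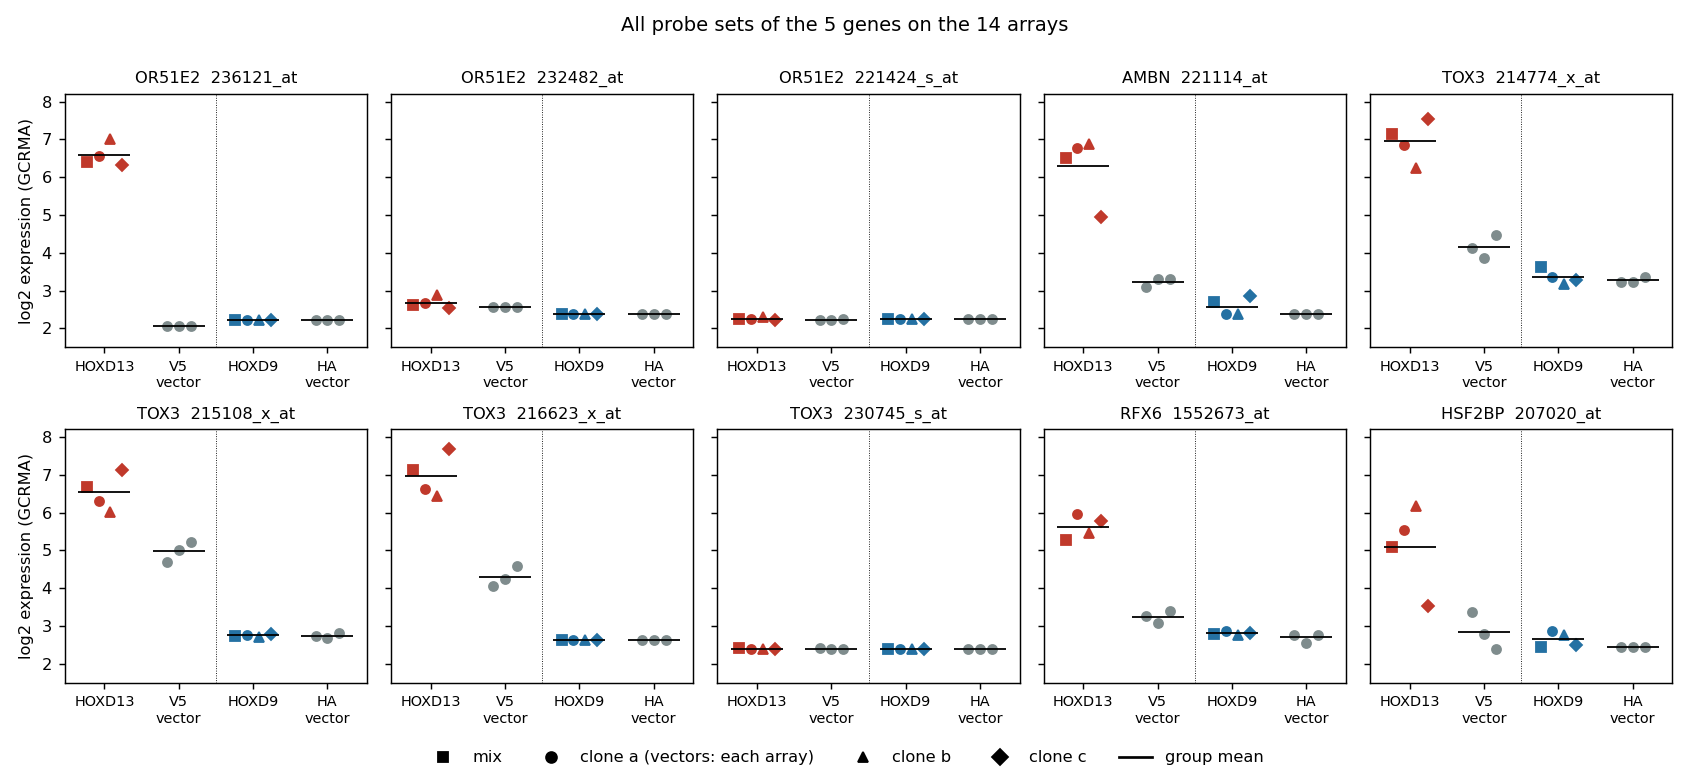
Log2 expression (vertical axis) of the 10 probe sets of the 5 genes on each of the 14 arrays, by group, with the HOXD13 lines left of the V5 vector and the HOXD9 lines left of the HA vector, and with horizontal bars for group means. In 7 panels all 4 HOXD13 points lie above all 3 V5 vector points, while OR51E2 232482_at and 221424_s_at and TOX3 230745_s_at stay below 3 throughout.

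OR51E2 had the widest difference of the 5 genes, and it had it on 1 of its 3 probe sets. Probe set 236121_at read 6.39 in the HOXD13 mix and 6.57, 7.01 and 6.33 in clone a, clone b and clone c, against 2.07 on each of the 3 V5 vector arrays. The lowest HOXD13 line stood 4.27 above the highest vector array, so the groups were far apart, and the HOXD13 lines lay close together. The means were 6.58 ± 0.31 in the HOXD13 lines (n = 4) and 2.07 ± 0.00 in the V5 vector (n = 3), a difference of 4.51 or 22.8-fold. The fold rests on a vector level at the floor and depends on the background model. RNA was taken in bulk from each line, so more RNA per cell and more cells with the transcript cannot be told apart here or below. As a mean percentile of all probe sets on an array, this probe set was at 72.5 in the HOXD13 lines and at 0.1 in the V5 vector.

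The other OR51E2 probe sets did not show this. Probe set 232482_at read 2.63, 2.67, 2.89 and 2.55 in the HOXD13 mix, clone a, clone b and clone c, against 2.58, 2.56 and 2.57 in the V5 vector, and the groups overlapped. Probe set 221424_s_at read 2.24, 2.24, 2.31 and 2.23 in the same lines, against 2.23, 2.23 and 2.24 in the V5 vector. In the platform annotation 236121_at was designed on an expressed sequence tag, 232482_at on a GenBank record and 221424_s_at on the RefSeq mRNA. Which transcript the first of these reads was not tested, since probe positions were not used here.

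AMBN is read by a single probe set, 221114_at, designed on its RefSeq mRNA. It read 6.52 in the HOXD13 mix and 6.78, 6.89 and 4.96 in clone a, clone b and clone c, against 3.10, 3.30 and 3.30 on the V5 vector arrays. The mix and clones a and b lay close together and clone c stood well below them, yet 1.66 above the highest vector array. The means were 6.29 ± 0.90 (n = 4) in the HOXD13 lines and 3.23 ± 0.11 (n = 3) in the V5 vector, which differ by 3.06 or 8.31-fold.

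AMBN is also the member whose start region could be shown, to let the letters be read beside its values. The 250 bases before its start in RefSeq (GRCh38.p14, chr4:70592006-70592255, plus strand) are printed 5′ to 3′, with the HOX13-type word CAATAAA in capitals.
AMBN promoter: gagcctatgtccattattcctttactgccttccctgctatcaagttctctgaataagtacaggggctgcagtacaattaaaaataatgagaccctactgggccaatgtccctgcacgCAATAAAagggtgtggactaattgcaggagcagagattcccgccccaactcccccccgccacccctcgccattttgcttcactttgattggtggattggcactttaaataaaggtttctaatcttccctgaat
The searched words were CAATAAA and TCGTAAA, which are known as preferred sites of the HOX13 paralogues, on both strands. They do not overlap each other here. CAATAAA occurs once on the plus strand, 133 bases before the start, and 3.66% of 35116 promoters of the same length hold it. TCGTAAA is not among these letters and occurs in 0.444% of the promoters. GC content was 46.8% with 4 CG pairs, against medians of 58.0% and 11 over all promoters. A match of letters is a description and shows no binding, and arrays of expression do not bear on it.

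TOX3 is read by 4 probe sets, of which 3 differed between the groups, all of the kind marked x, whose probes may also bind other transcripts. Probe set 214774_x_at read 7.15 in the HOXD13 mix and 6.85, 6.24 and 7.54 in clone a, clone b and clone c, against 4.12, 3.87 and 4.46 on the V5 vector arrays. Every line was higher than every vector array, and here clone c was the highest line and clone b the lowest. Its means were 6.95 ± 0.55 (n = 4) in the HOXD13 lines and 4.15 ± 0.30 (n = 3) in the V5 vector, a difference of 2.80 or 6.95-fold.

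The other x-marked TOX3 probe sets showed the same order of lines. Probe set 216623_x_at read 7.13, 6.62, 6.43 and 7.69 in the HOXD13 mix, clone a, clone b and clone c, against 4.07, 4.25 and 4.58 in the V5 vector, a difference of 2.67 or 6.34-fold. Probe set 215108_x_at read 6.69, 6.30, 6.02 and 7.13 in these lines, against 4.69, 5.01 and 5.23 in the V5 vector, a difference of 1.56 or 2.95-fold with a gap of 0.80 between the groups. With a V5 vector mean of 4.98 it was the only one of the 7 not below 4.5 in the vector, so the word silent fits it least. The 4th probe set, 230745_s_at, stood at 2.39 to 2.41 in the HOXD13 lines and at 2.40 to 2.41 in the V5 vector.

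RFX6 is read by a single probe set, 1552673_at. It read 5.28 in the HOXD13 mix and 5.97, 5.46 and 5.79 in clone a, clone b and clone c, against 3.26, 3.07 and 3.39 on the V5 vector arrays. No line was out of step with the others, and the lowest lay 1.89 above the highest vector array. The means of 5.62 ± 0.31 (n = 4) in the HOXD13 lines and 3.24 ± 0.16 (n = 3) in the V5 vector differ by 2.38 or 5.21-fold.

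HSF2BP is likewise read by a single probe set, 207020_at, and was the most uneven of the 5 genes. It read 5.08 in the HOXD13 mix and 5.55, 6.18 and 3.53 in clone a, clone b and clone c, against 3.36, 2.80 and 2.39 on the V5 vector arrays. Clone c was only 0.17 above the highest vector array, so the groups barely separate. The means were 5.09 ± 1.13 (n = 4) in the HOXD13 lines and 2.85 ± 0.49 (n = 3) in the V5 vector, which differ by 2.23 or 4.71-fold, and without clone c by 2.75. It also had the widest spread among the vector arrays.

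**Figure D2:**
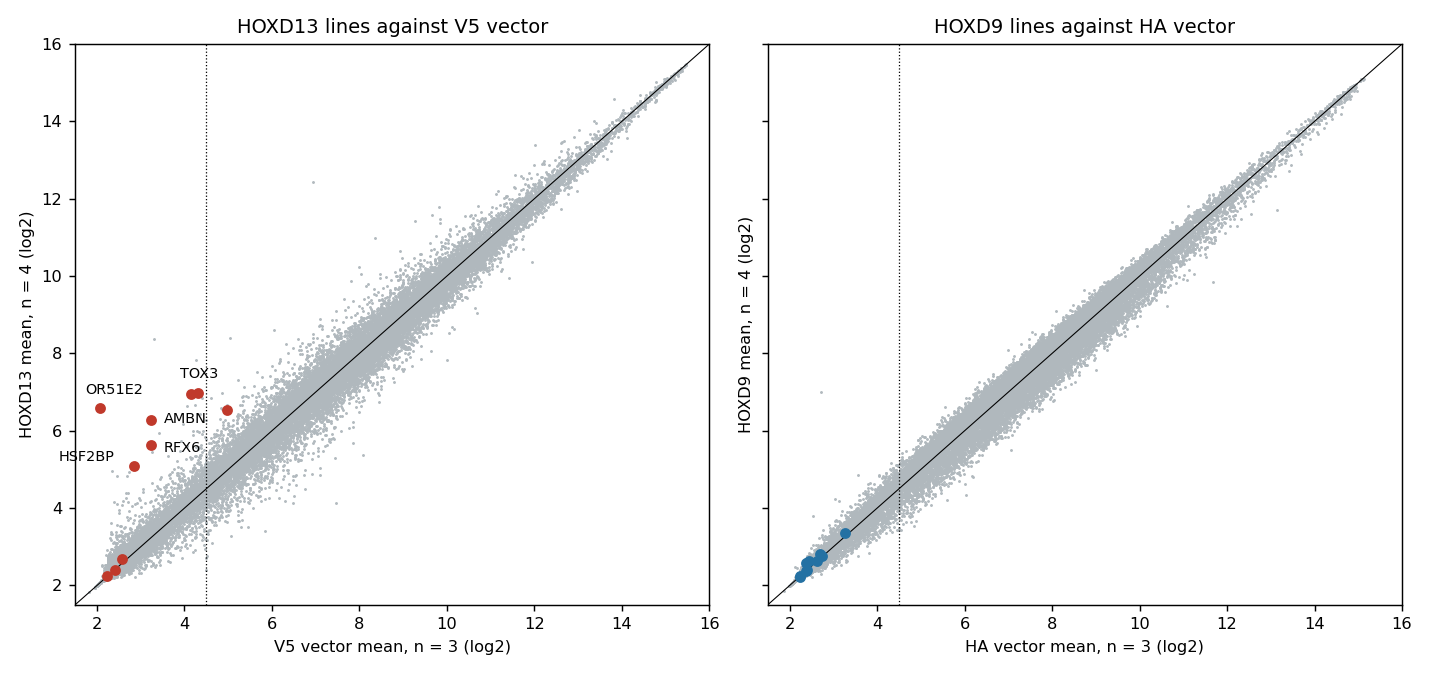
Mean log2 expression of every probe set in the HOX lines (vertical axis, n = 4) against the vector of the same tag (horizontal axis, n = 3), with the probe sets of the 5 genes as large points and a dotted line at a vector mean of 4.5. The 7 differing probe sets lie off the diagonal on the left for HOXD13, with OR51E2 at 6.58 against 2.07, and on or next to the diagonal for HOXD9.

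Where the 5 genes stand among all probe sets that were low in the vector was counted with a fixed definition. A probe set was called silent at a vector mean under 4.5, and switched on when the HOX mean was at least 1 higher and every HOX array lay above every vector array. Of 34061 silent probe sets in the V5 vector, 40 were switched on in the HOXD13 lines, or 0.117%, and they read 36 genes, with 3 probe sets of no single gene. In the HOXD9 lines 5 of 35815 were switched on, or 0.0140%, and none of the 5 was among the 40. These 5 read HOXD9 itself, HLA-DMA, CENPE, CEP290 and MIR7-3HG. The sets are on separate scales, so the same thresholds need not mean the same in both. With shares this small, almost no overlap could be found, so nothing is read from its lack. Of the 40, 6 were probe sets of the 5 genes.

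In the order of the difference, HOXD13 probe set 207398_at came first at 5.05 and OR51E2 followed at 4.51. EPC1, a subunit of a histone acetyltransferase complex, followed at 3.55, but its HOXD13 lines were spread widely at 7.82 ± 1.74 (n = 4). AMBN and both TOX3 probe sets came next. FOS, an immediate early transcription factor, stood at 2.58, CDKN2AIPNL at 2.54 and PHEX-AS1 at 2.43. RFX6 and HSF2BP closed the group of 11 probe sets with a difference of at least 2. Just below HSF2BP at 2.23 were SCIN, which encodes an actin-severing protein, at 1.79 (5.99 ± 0.27 in the HOXD13 lines and 4.20 ± 0.28 in the V5 vector) and UBE2G2, a ubiquitin-conjugating enzyme, at 1.78 (4.17 ± 1.23 and 2.39 ± 0.01 in the same groups). The 5 genes thus lie within the upper end of a continuous ranking, with other genes between them and below them.

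**Figure D3:**
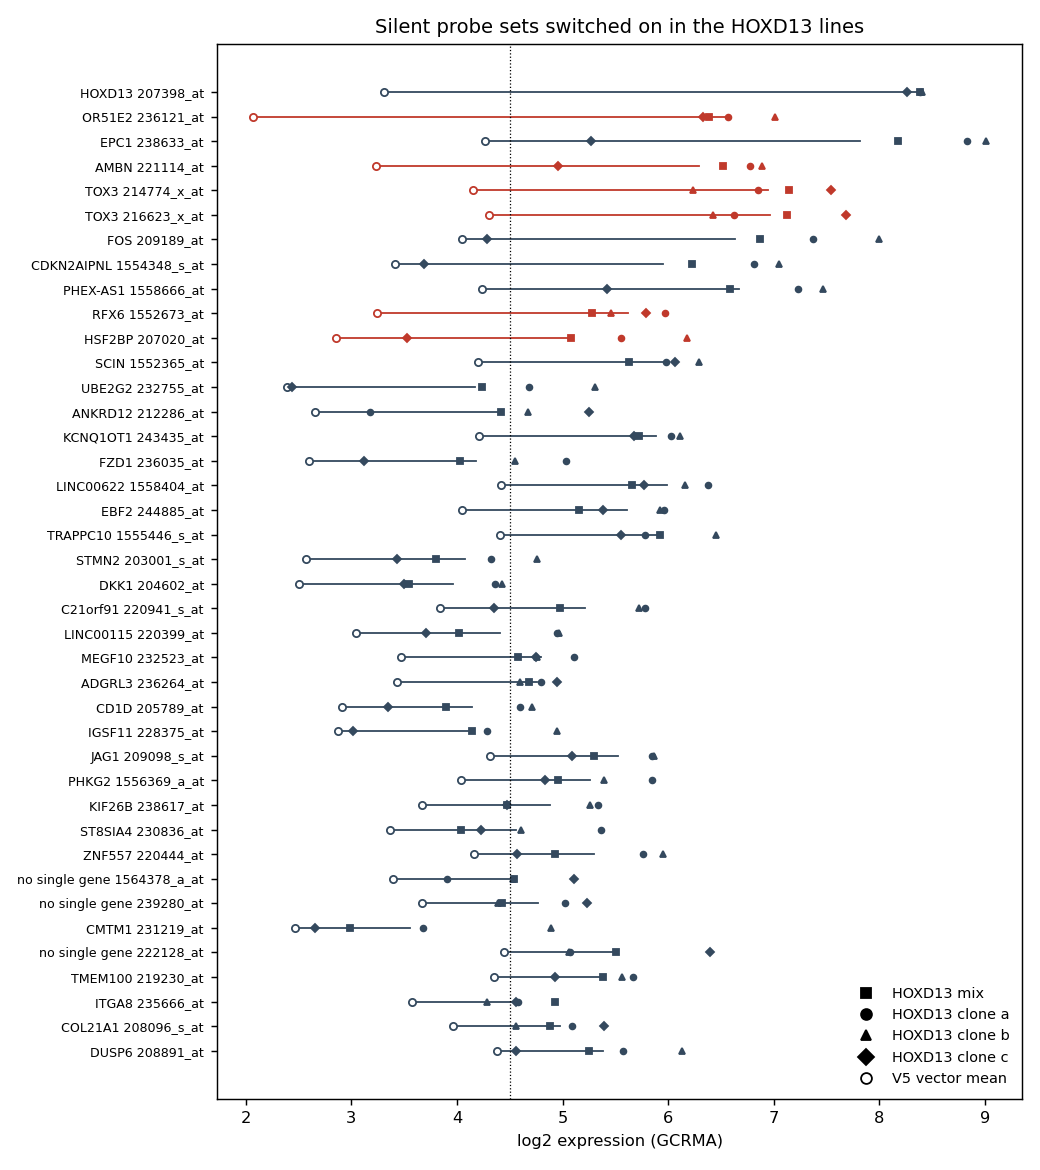
The 40 silent probe sets switched on in the HOXD13 lines, ordered by their difference, with log2 expression on the horizontal axis, each HOXD13 line as a filled mark, the V5 vector mean as an open circle and the probe sets of the 5 genes in red. OR51E2 runs from the lowest vector mean, 2.07, while in several others, such as UBE2G2, clone c lies next to the vector.

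The 4 HOXD13 lines did not rank alike for the 5 genes. OR51E2, AMBN and HSF2BP all had the order clone b, clone a, mix, clone c from high to low. HOXD13 probe sets 207397_s_at and 236681_at had the same order, while 207398_at read 8.39 in both the mix and clone a. Over all 19816 probe sets tested, 24.3% had this order and 21.5% its reverse. TOX3 had the opposite extremes, with clone c highest, then the mix, clone a and clone b, on all 3 probe sets that differed. RFX6 had the order clone a, clone c, clone b, mix. With 4 lines these orders are a description, and lines share their origin in the mix.

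The size of the difference per line varied least for OR51E2. Over the 4 lines it was 4.27 to 4.94 above the V5 vector mean for OR51E2, or 19.2-fold to 30.8-fold. For RFX6 it was 2.04 to 2.73, or 4.10-fold to 6.62-fold. For TOX3 on 214774_x_at it was 2.09 to 3.39, or 4.27-fold to 10.5-fold. The remaining genes depended more on the line. AMBN ranged over 1.73 to 3.66, or 3.31-fold to 12.6-fold, and HSF2BP over 0.68 to 3.33, or 1.60-fold to 10.0-fold.

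Clone c set most of that range in AMBN and HSF2BP. Its HSF2BP difference was 0.68, against a mean of 2.75 in the other lines, and its AMBN difference was 1.73, against 3.5. For OR51E2 it was 4.27, against 4.59. For TOX3 it was 3.39, against 2.60, and for RFX6 2.55, against 2.33, so in these genes clone c was not the weaker line. Clone c also had the lowest HOXD13 signal of the lines, by little on 207397_s_at and 207398_at. It read 12.24 on 207397_s_at against 12.32 to 12.59, and 8.26 on 207398_at against 8.39 to 8.41. On 236681_at it read 8.87 against 10.15 to 10.42. On 236681_at the V5 vector arrays read 8.93 to 8.95, so there clone c stood at the level of the vector, which is read without the transgene. Whether the level of HOXD13 has a part in these differences was not tested.

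**Figure D4:**
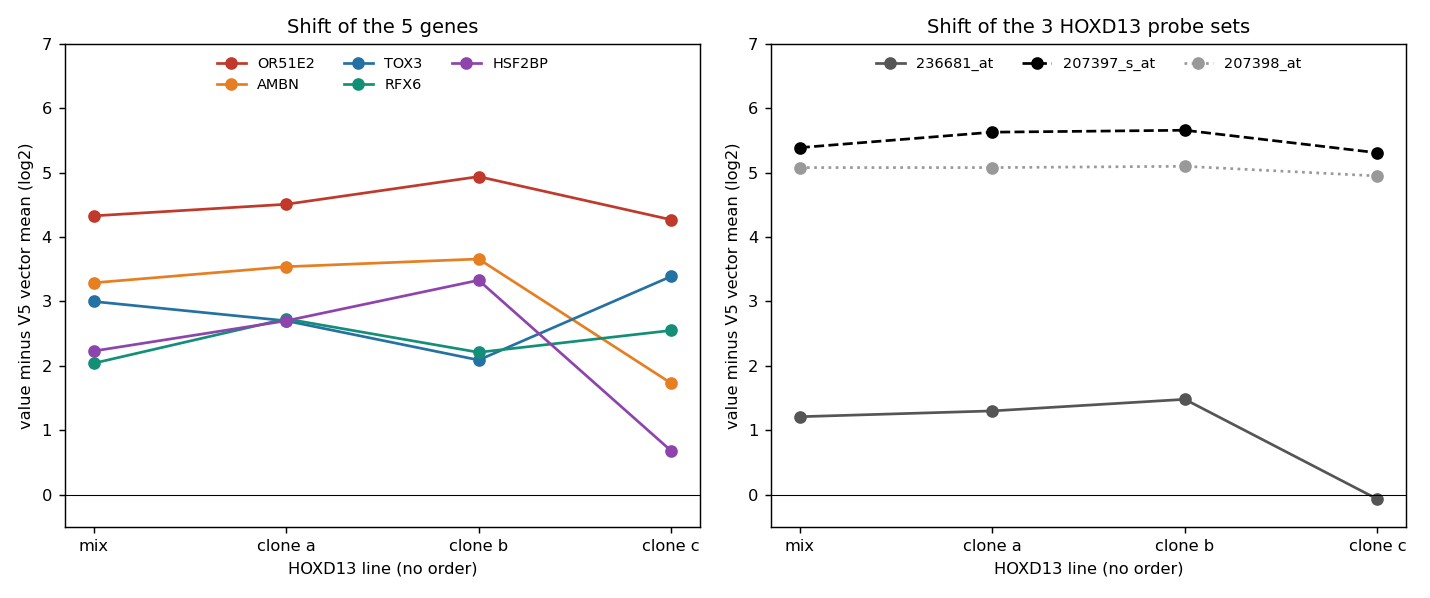
Difference from the V5 vector mean (vertical axis, log2) in each HOXD13 line for the 5 genes on the left and for the 3 HOXD13 probe sets on the right. The lines joining the points only guide the eye. In clone c AMBN and HSF2BP drop to 1.73 and 0.68 while TOX3 reaches its highest value of 3.39.

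In the HOXD9 lines and the HA vector the 5 genes lay at or near the floor. Their 7 probe sets passed the filter through the HOXD13 arrays, and 0 of them were called by limma in HOXD9 minus HA vector (adjusted p under 0.05 over 19816 probe sets, 0.0303% of which were called). Nothing is read from that count. The standard errors of the fit come largely from the HOXD13 lines, where these probe sets vary most, and are no measure of the spread in the HA set. The values per array are therefore the main description.

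OR51E2 236121_at read 2.23 on all 4 HOXD9 arrays and on all 3 HA vector arrays, a difference of 0.00 (limma, adjusted p = 1.0). AMBN read 2.69, 2.38, 2.39 and 2.85 in the HOXD9 mix, clone a, clone b and clone c, against 2.38 on each HA vector array, a difference of 0.20 (SE 0.35, adjusted p = 0.734). HSF2BP read 2.44, 2.87, 2.77 and 2.50 in those lines, against 2.44 on each HA vector array, also a difference of 0.20 (SE 0.45, adjusted p = 0.792, or SE 0.14 and adjusted p = 0.375 when only the 7 arrays of the HA set are fitted). In both genes some HOXD9 lines were at the floor of the vector and others slightly above it.

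RFX6 read 2.79, 2.87, 2.77 and 2.81 in the HOXD9 mix, clone a, clone b and clone c, against 2.77, 2.56 and 2.77 in the HA vector, a difference of 0.11 (SE 0.15, adjusted p = 0.660). The 3 TOX3 probe sets differed by 0.09, 0.01 and 0.01. At the floor, where GCRMA holds nearly equal values, a change of the transcript may not show, so these values set no bound on an effect of HOXD9. Whether the effects of HOXD13 and HOXD9 on these genes differ was not tested.

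Markers of the tissues in which the 5 genes are known were read to see how far other genes of those tissues were measurable. Over 12 lists with 130 genes, 101 had a probe set and 37 were tested in HOXD13 minus V5 vector, where 1 was higher, 2 were lower and 34 were not called by limma over 10349 genes. The median difference of the 37 was -0.07, against -0.03 for all genes, of which 10.6% were called, 2.88% higher and 7.76% lower. In HOXD9 minus HA vector 0 of the 37 were called, against 0.00966% of all genes. The prostate, tooth matrix and meiosis lists could not be tested, since all of their genes with a probe set lay under the filter.

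Of the prostate markers, 7 had a probe set and 0 were tested. Their group means lay at 2.20 to 4.29 in the HOXD13 lines and at 2.20 to 4.44 in the V5 vector, and KLK3, prostate-specific antigen, read 2.48 in the HOXD13 lines and 2.84 in the V5 vector. The 8 other receptors of the OR51 family with a probe set lay at 2.10 to 2.22 in both groups. Among them OR51E1, which lies beside OR51E2 on chromosome 11, read 2.13 in both. Of the genes through which odorant receptors signal by calcium and cyclic AMP, 12 were tested and 1 was called. ADCY3, the adenylate cyclase of olfactory neurons, fell to 7.74 ± 0.30 in the HOXD13 lines (n = 4), against 8.41 ± 0.07 in the V5 vector (n = 3), by 0.67 on the log2 scale (SE 0.19, adjusted p = 0.0436 by limma). Leaving out 1 array ended that call in 10 of 14 cases (any HA or V5 vector array, the HOXD9 mix, or the HOXD13 mix, clone a or clone b), with adjusted p up to 0.148 without V5 vector 1.

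Of the tooth matrix genes, all 10 with a probe set were below the filter, at 2.21 to 4.08 in the HOXD13 lines and 2.21 to 4.04 in the V5 vector, with differences of -0.01 to 0.04. The upper end was DSPP, a dentin matrix gene, at 4.08 in the HOXD13 lines and 4.04 in the V5 vector. ENAM, enamelin, which neighbours AMBN on chromosome 4, read 2.37 in both groups. Of the meiosis genes, 16 had a probe set and all lay below the filter. SYCP2, a component of the synaptonemal complex, differed most, at 3.39 ± 0.95 in the HOXD13 lines and 2.90 ± 0.02 in the V5 vector. Of the listed HSF2BP partners 3 were tested and 0 were called.

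Islet genes were partly measurable. Of 12 with a probe set 4 were tested, and ISL1, a LIM homeodomain factor of islets and motor neurons, was the only one called. It rose to 8.59 ± 0.35 in the HOXD13 lines (n = 4), against 7.80 ± 0.06 in the V5 vector (n = 3), by 0.79 (SE 0.15, adjusted p = 0.00817 by limma). The fit takes the same spread for all groups, while the HOXD13 lines varied more than the vector, so this SE may be too small. All 4 lines, at 8.09 to 8.88, lay above the vector arrays at 7.75 to 7.86, and the call held in all 20 alternatives, at adjusted p of 1.99e-05 to 0.0495. INSM1 differed by 0.22 (adjusted p = 0.470) and NKX2-2 by -0.14 (adjusted p = 0.668), neither of which was called. The 8 islet genes below the filter lay at 2.23 to 2.73 in the HOXD13 lines and 2.23 to 2.41 in the V5 vector, with CHGA, chromogranin A, at 2.73 and 2.32.

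Of the luminal breast markers 3 of 7 were tested, and XBP1, a factor of the unfolded protein response, fell by 0.42 on the log2 scale to 10.83 ± 0.07 in the HOXD13 lines, against 11.25 ± 0.02 in the V5 vector (limma, adjusted p = 0.0303). Without 1 array that call ended in 9 of 14 cases (any vector array, or the HOXD13 mix, clone a or clone b), with adjusted p up to 0.116 without V5 vector 2. FOXA1 and GATA3, transcription factors of luminal cells, were tested and not called (adjusted p = 0.379 and 0.899). ESR1, PGR, TFF1 and KRT19 lay below the filter, at 2.24 to 2.52 in the HOXD13 lines and 2.25 to 2.52 in the V5 vector. Relatives of the 2 transcription factors did not move with them past the test. In the TOX family 2 genes were tested and 0 called, with TOX2 at -0.32 (adjusted p = 0.298). In the RFX family 7 were tested and 0 called, with the widest differences at RFX1 (-0.46, adjusted p = 0.194) and RFXANK (-0.43, adjusted p = 0.0640). The widest HEK293 marker difference was that of NEFL at 0.71 (adjusted p = 0.0721).

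Genes next to the 5 on their chromosomes were read as well. Of the 30 nearest with a probe set, 3 on each side of each gene in RefSeq order, 23 lay below the filter, with differences between the HOXD13 lines and the V5 vector of -0.06 to 0.00. The other 7 were tested, of which 2 were called higher by limma, against 2.88% of all genes. UTP3, which acts in ribosome assembly and lies near AMBN, rose by 0.35 (adjusted p = 0.0329), to 9.57 ± 0.04 in the HOXD13 lines (n = 4), against 9.22 ± 0.06 in the V5 vector (n = 3). SIK1, a salt-inducible kinase beside HSF2BP on chromosome 21, rose by 1.23 (SE 0.30, adjusted p = 0.0229), to 8.11 ± 0.76 in the HOXD13 lines, against 6.89 ± 0.04 in the V5 vector. Its SE may be too small, since the fit takes the same spread for all groups and the HOXD13 lines varied more. SIK1 has a near-identical copy, so which copy is read is uncertain.

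Taking instead the nearest 30 that passed the filter, 3 were higher, 1 was lower and 26 were not called. Their median difference was 0.07, against -0.03 for all genes, of which 10.6% were called, 2.88% higher and 7.76% lower. The higher neighbour besides UTP3 and SIK1 was H2BC12L, a histone H2B gene after HSF2BP, at 1.22 (limma, adjusted p = 0.0495). Its copies are also near-identical. The lower one was TRIM5, a restriction factor after OR51E2, which fell by 0.66 on the log2 scale (adjusted p = 0.0471). These calls were fragile. The count was 4 of 30, 0 without V5 vector 1 and 12 without HOXD13 clone c, and each of UTP3, SIK1, H2BC12L and TRIM5 lost its call without any 1 V5 vector array, HOXD13 clone a or HOXD13 clone b.

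**Figure D5:**
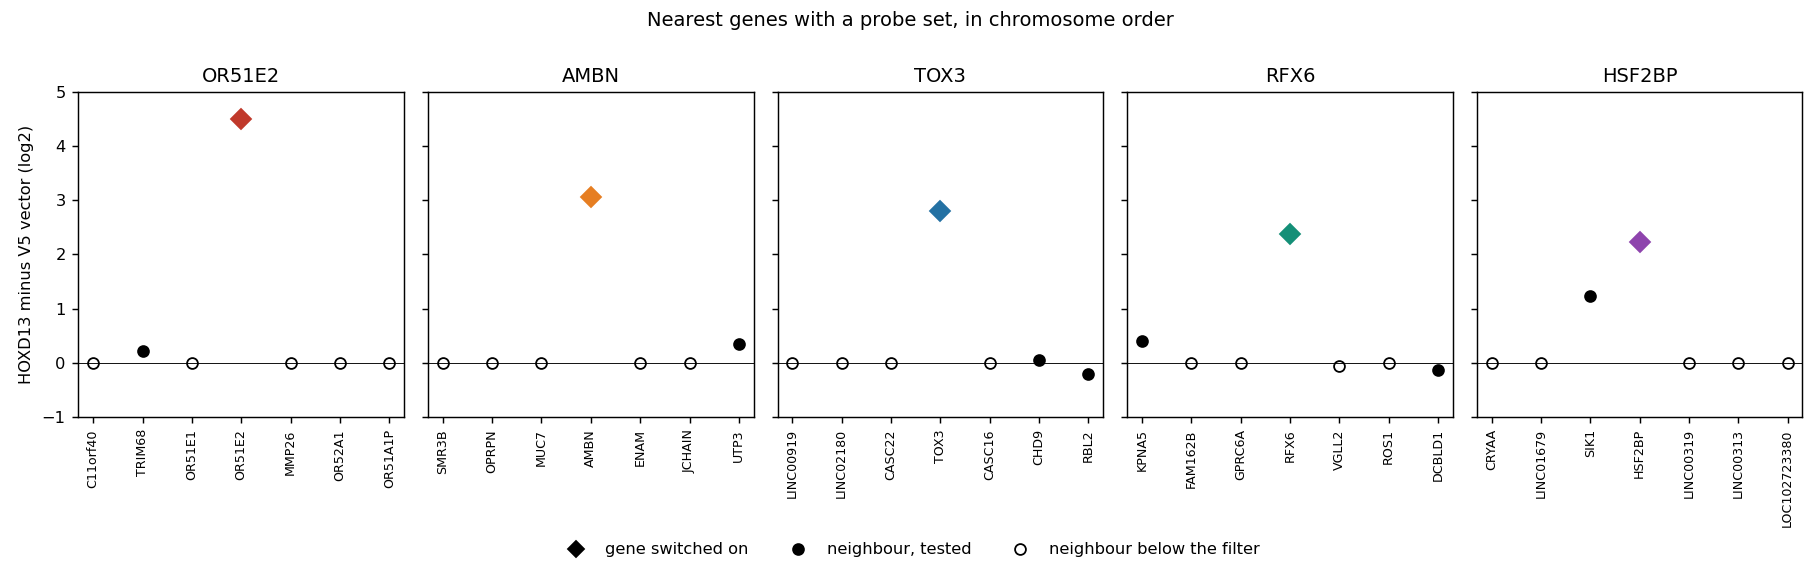
Difference between the HOXD13 lines and the V5 vector (vertical axis, log2) of each of the 5 genes and of the 3 nearest genes with a probe set on either side, in chromosome order without scale. Open circles are neighbours below the filter, which lie between -0.06 and 0.00, and among the filled ones SIK1 beside HSF2BP reaches 1.23.

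The genes whose pattern was most like that of each member were found by the correlation of the difference from the vector mean of the own tag set over all 14 arrays. The value mostly reflects how the HOXD13 arrays stand apart from the other 10, and it is a description without a p. OR51E2 was most like PTGER4, a prostaglandin receptor (r = 0.986), KCNQ1OT1, a long noncoding RNA of an imprinted domain (0.985), and EBF2, a helix-loop-helix factor (0.972). The same 3 genes, in another order, were nearest to RFX6, at r = 0.971 for EBF2 and 0.965 for the others. PTGER4 read 8.60 ± 0.23 in the HOXD13 lines (n = 4) and 6.05 ± 0.13 in the V5 vector (n = 3), a difference of 2.56.

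AMBN and HSF2BP, which share the low clone c, both had BPGM, an enzyme of red cell glycolysis, among their nearest (r = 0.973 each). Its HOXD13 lines ranged over 8.23 to 9.41, against 7.84 to 7.97 in the V5 vector. AMBN was also like ISL1 (0.977) and NELL2 (0.975), and HSF2BP like EFNB2 (0.979), an ephrin ligand, and ARHGAP26 (0.972). TOX3 was least closely matched, by SCARNA15 (0.955), PTGER4 (0.944) and AGAP9 (0.930).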

How the data were processed

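The labels give 14 arrays of total RNA from HEK293 lines. The deposited values are log2 expression values, 1 per probe set, made with GCRMA per the submitters' processing notes; for its version and the genome build no source used here gives a value. GCRMA corrects background by probe sequence, equalises the distributions of arrays and condenses each set's probes to 1 value, so undetected transcripts share a floor. For arrays no depth exists, and precision is limited by how many there are. Of 54675 probe sets 62 are controls; the platform annotation of 2016 gives 41097 probe sets 1 gene, 1801 several and 11777 none, and 41043 of those with 1 gene matched RefSeq of GRCh38.p14.

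Probe sets with a value of at least 5 on at least 3 arrays were tested (19816, reading 10349 genes, each by its brightest probe set). Means of 4 groups were fitted over 14 arrays with limma 3.58.1 in R 4.3.3 (lmFit, eBayes, 10 residual and 3.02 prior degrees of freedom), two-sided, with Benjamini-Hochberg adjustment over all probe sets or genes tested and calls at an adjusted p under 0.05. The fit assumes the same spread in all groups. Where the HOXD13 lines varied most, as for ISL1, SIK1 and H2BC12L, SEs and p-values of HOXD13 minus V5 vector may be too small. Member probe sets were tested in HOXD9 minus HA vector only. The code was tested on simulated data. Tables were joined with pandas 2.3.3 and figures drawn with matplotlib 3.10.9 in Python 3.11.15.

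The members and lists were chosen with earlier results of these data known. Named genes were all members, HOXD13, the called genes of each list or neighbour set (at most 4) and up to 2 further ones with the largest change, the genes next to the members in the ranking, and the 3 genes with the most similar pattern; others were chosen after their values were seen. Alternatives were the filter, centring of arrays, the arrays in the fit, a trend of the prior variance, the probe set per gene, the thresholds for silent probe sets and leaving out each array. Promoter letters come from RefSeq; for OR51E2, TOX3, RFX6 and HSF2BP none is shown.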

Additional observations from a re-analysis of the deposited data

Results flagged for a closer look

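OR51E2 probe set 221424_s_at read 2.31 in HOXD13 clone b, against 2.23 to 2.24 in the other 3 lines, all at the floor. HOXD13 probe set 207398_at read 8.26 in HOXD13 clone c, against 8.39 to 8.41 in the other lines. Each stood apart from the other lines of its group by Dixon's test for 4 values, which by chance picks out a small share of such groups, so isolated values of this kind can arise by chance.

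The effects of HOXD13 and HOXD9, each against its own vector, were checked for the listed genes and neighbours called in HOXD13 minus V5 vector. They differed by limma's test of the difference for ISL1 and ADCY3. The V5 and HA sets are on separate scales. A call in HOXD13 minus V5 vector also favours such a difference in advance, so nothing is read from it. Genes without that call were not flagged, though some differed by the same limma test. These were RFXANK (-0.98, adjusted p = 0.0104) and REEP2 (-0.74, adjusted p = 0.0207) of the lists. Among the neighbours they were CBS (-0.71, adjusted p = 0.0262) and YTHDC1 (0.45, adjusted p = 0.0499). The share over all genes is not given here. For ISL1 the difference of the effects was 0.74 (0.79 with HOXD13 and 0.05 with HOXD9, adjusted p = 0.0496). For ADCY3 it was -1.01 (-0.67 with HOXD13 and 0.34 with HOXD9, adjusted p = 0.0358).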

How the results depend on the processing

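No probe set of the 5 genes was called in HOXD9 minus HA vector under any of 19 alternatives (smallest adjusted p 0.279 by limma). Nothing is read from this, since these probe sets passed the filter through the HOXD13 arrays and lie at or near the floor in the HA set. Of the 131 values of these probe sets, 130 did not reverse in sign, where a value of 0.00 counts as not reversed. TOX3 215108_x_at turned to -0.03 without HA vector 2 (limma, adjusted p = 0.955). The HOXD13 minus V5 vector differences moved by less than the spread between lines. Without 1 array they ran over 4.37 to 4.59 for OR51E2 236121_at, 0.05 to 0.16 for 232482_at, 0.00 to 0.03 for 221424_s_at, 2.85 to 3.5 for AMBN, 2.60 to 3.03, 1.36 to 1.73, 2.42 to 2.85 and -0.01 to 0.00 for TOX3 214774_x_at, 215108_x_at, 216623_x_at and 230745_s_at, 2.27 to 2.5 for RFX6 and 1.87 to 2.75 for HSF2BP.

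Counts of calls depended on single arrays, clone c above all, and the cause was not tested. Silent probe sets switched on in the HOXD13 lines numbered 19 at a vector mean under 3.5, 62 under 5.5, 11 at a rise of at least 2 and 37 to 157 without 1 array (157 without HOXD13 clone c), against 40. For HOXD9 they numbered 1 at a rise of at least 2 and 5 without any 1 array. Genes called in HOXD13 minus V5 vector numbered 303 (without V5 vector 3) to 3701 (without HOXD13 clone c), against 1101. In HOXD9 minus HA vector 1 gene was called, 6 without the filter, 2 at a filter of 6, 0 with the 7 arrays of the tag set, 2 with the mean of the probe sets, and 0 to 1100 without 1 array (880 without HOXD9 clone b, 1100 without HOXD13 clone c). Genes called over the lists numbered 1 to 11 without 1 array, against 3, and neighbours 0 to 12, and 2 without the filter, against 4. By list they numbered 0 to 3 for cyclic AMP signalling and for HEK293 markers, 0 to 2 for luminal breast, olfactory neuron and RFX genes, and 1 for islet genes in each case.

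Of 20 alternatives the call was lost in 12 for ADCY3, 14 for H2BC12L, 7 for SIK1, 13 for TRIM5, 9 for UTP3 and 9 for XBP1, in 0 for ISL1, and none changed sign. No paired analysis was possible because the HOX lines carry the names mix, a, b and c and share no replicate number with the vector arrays. Values near the floor limit what can be seen of low transcripts.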

Other observations

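The following values were looked at after the data had been seen. Of the 36 genes with a switched-on probe set in the HOXD13 lines, 30 were neither HOXD13 nor one of the 5. Of these, 9 are read by 1 probe set and 21 by several, and in all 21 only 1 of the probe sets differed by at least 1. TOX3, with 3 of its 4 probe sets, and HOXD13, with 2 of 3, were the exceptions, and OR51E2, with 1 of 3, was like the 21.

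Among the 40 switched-on probe sets clone c was the lowest line in 24 and clone b the highest in 21. The median difference from the V5 vector was 1.24 in the HOXD13 mix and 1.81, 1.93 and 1.0 in clone a, clone b and clone c. The order clone b, clone a, mix, clone c, which OR51E2, AMBN and HSF2BP share, was found in 18 of the 40 (45.0%) and in 24.3% of the 19816 probe sets tested. The reverse order, that of TOX3, was found in 3 of the 40 (7.50%), 2 of which read TOX3, and in 21.5% of those tested. The 40 were selected on these same lines and include the members whose orders were counted. They were also held to a low vector level, unlike the probe sets tested, so nothing is read from these shares.

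On chromosome 21 lay 4 of the 36 switched-on genes (11.1%), against 197 of 14085 genes with a silent probe set (1.40%). They were HSF2BP, UBE2G2, TRAPPC10 and C21orf91. Chromosome 1 also held several of the 36, namely CD1D, KIF26B, LINC00115 and LINC00622. The 36 were selected on these same arrays and include HSF2BP, so nothing is read from the share. The median difference of the 107 tested genes of chromosome 21 was 0.03 in the HOXD13 mix and -0.05, -0.04 and -0.16 in clone a, clone b and clone c, against -0.02, -0.04, -0.04 and -0.13 for all genes.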
